A study of Homo sapiens with 42 samples.

Results

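The 9 genes described here encode CC chemokines: CCL2, CCL7, CCL8, CCL11, CCL13, CCL26, CCL3, CCL5 and CCL20. They were taken by symbol from a table of raw read counts for 28266 genes, and their change with senescence was compared between a model driven by an oncogene and a model driven by DNA damage. IMR90 is an established strain of human lung fibroblasts. IMR90 ER:RAS cells carry, in addition, a fusion of the oestrogen receptor and oncogenic RAS, and 100 nM 4-hydroxytamoxifen (4OHT) switches it on and drives oncogene-induced senescence (OIS), with DMSO as the control. Parental IMR90 cells received bleomycin, a DNA-damaging drug, at 50 µg/ml for 24 h, or DMSO. All cells were cultured for 7 days and then kept in 1 µg/ml doxycycline for 72 h, which induced a control shRNA, COPB2 shRNA 1 or COPB2 shRNA 2. Day 10 was the time of RNA extraction. The target of these shRNAs, COPB2, is a component of the COPI vesicle coat. Each of the 6 ER:RAS groups had 3 libraries and each of the 6 IMR90 groups had 4, giving 42 libraries in 12 groups. Since OIS was induced in ER:RAS cells and bleomycin was given to cells without the fusion, the inducer and the cell line cannot be told apart.

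CC chemokines are small secreted proteins with adjacent cysteines near their amino terminus, and they guide white blood cells through G protein-coupled CCR receptors. CCL2, CCL7, CCL8 and CCL13 are monocyte chemoattractants that act on CCR2. CCL11 and CCL26 are eotaxins, which attract eosinophils through CCR3, CCL3 and CCL5 attract T cells and monocytes, and CCL20 is the ligand of CCR6. Senescent fibroblasts are known to secrete several chemokines as part of the senescence-associated secretory phenotype, which draws immune cells to them.

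Total counts per library ran from 13148194 to 23597310, so that 3 reads, the floor used here, correspond to between 0.11 and 0.271 CPM (counts scaled to library size, times 1e6). COPB2 itself averaged between 340 and 479 CPM in the 4 groups with the control shRNA and between 45.7 and 113 CPM in the 8 groups with a COPB2 shRNA. HRAS and ESR1, the parts of the fusion, were between 3420 and 4902 CPM and between 1855 and 2480 CPM on average in the ER:RAS groups, and at most 97.1 and 0.309 CPM in the IMR90 groups. All 9 fibroblast markers checked, collagen and PDGF receptor genes among them, had reads, with a summed level between 8161 and 27787 CPM. With the control shRNA 7 of the 9 were lower and 1 higher in OIS, and 7 were lower and 0 higher after bleomycin (adjusted p under 0.05 by edgeR). Over all genes tested 20.2% and 15.8% were lower by that measure. In each bleomycin group the library numbered 4 stood apart for several chemokines, and the results that moved most with these 3 libraries are also given without them. These libraries were singled out after the members' values had been seen, so results of fits without them are a description. In bulk RNA, fewer producing cells and less RNA per producing cell cannot be told apart.

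Of the 9 genes, 7 lie on chromosome 17 of GRCh37. A run of 5 neighbouring genes on the plus strand, CCL2 (32582293 to 32584227), CCL7 (32597240 to 32599261), CCL11 (32612761 to 32615353), CCL8 (32646454 to 32648421) and CCL13 (32683499 to 32685629), fill a stretch of 103 kb in the GENCODE annotation. CCL5 (34198495 to 34207797) and CCL3 (34415602 to 34417515) lie further along on the minus strand, each across from 1 long noncoding RNA gene of the other strand. CCL26 is on chromosome 7 (75398851 to 75419214, minus strand) and CCL20 on chromosome 2 (228670455 to 228682280, plus strand). The 7 genes other than CCL3 and CCL5 overlap no annotated gene.

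The 250 bases before the RefSeq start are shown for CCL20, CCL7 and CCL26, the members that were higher in both models, so that their differing promoters can be seen beside their reads. The sequences are those of RefSeq on GRCh38.p14, at chr2:227813592-227813841 (plus strand), chr17:34269971-34270220 (plus strand) and chr7:75789747-75789996 (minus strand), and run 5′ to 3′ in the direction of the gene. Capitals mark every match, on either strand, to GGGNNNNNCC, a loose frame of the NF-kB site, to TGANTCA, the AP-1 site, and to TATAAA, the TATA box.
CCL20: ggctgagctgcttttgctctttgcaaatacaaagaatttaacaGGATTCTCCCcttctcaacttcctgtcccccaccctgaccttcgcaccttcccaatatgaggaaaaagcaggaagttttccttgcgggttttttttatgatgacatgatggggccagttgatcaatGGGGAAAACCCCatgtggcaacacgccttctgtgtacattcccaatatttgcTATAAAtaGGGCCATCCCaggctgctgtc
CCL7: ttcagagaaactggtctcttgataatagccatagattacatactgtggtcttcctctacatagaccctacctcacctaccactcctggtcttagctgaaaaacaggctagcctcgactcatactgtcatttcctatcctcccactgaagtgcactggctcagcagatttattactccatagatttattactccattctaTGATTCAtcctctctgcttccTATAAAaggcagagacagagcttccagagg
CCL26: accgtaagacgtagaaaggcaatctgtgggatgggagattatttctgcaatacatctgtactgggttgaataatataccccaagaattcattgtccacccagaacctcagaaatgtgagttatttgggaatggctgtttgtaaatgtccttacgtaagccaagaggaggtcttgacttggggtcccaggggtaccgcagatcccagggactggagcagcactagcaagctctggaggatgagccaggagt
Promoters of 6 of the 9 members were in the RefSeq table (CCL3, CCL7, CCL8, CCL13, CCL20 and CCL26). CCL20 was the 1 member of these 6 with the GGGNNNNNCC frame. It held the frame in a stretch of overlapping matches on both strands that starts 81 bases before the start. The frame was also at 2 other places, the nearest overlapping no TATAAA match. This frame was also found in 53.7% of all 27305 promoters, so a match alone sets no promoter apart. CCL7 held the 1 match to TGANTCA, 51 bases before the start, a motif found in 6.6% of all promoters. TATAAA was in 5 of the 6 members, between 24 and 31 bases before the start, and in 11.1% of all promoters, and the member without it in this window was CCL26. These are matches of letters and not measured binding sites.

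Of the 9 genes, 5 had enough reads to be tested (CCL2, CCL7, CCL11, CCL20 and CCL26), in a filter that asks for about 10 reads in as many libraries as the smallest group holds. CCL20 and CCL26 passed only through senescent libraries and CCL11 only through DMSO libraries, so these 3 had to differ to be tested. The p-values of their senescence responses and the counts of called members are a description. CCL2 and CCL7 had reads in all 42 libraries and CCL26 in 41. CCL8, CCL13 and CCL5 totalled 24, 81 and 57 reads over the 42 libraries. CCL3 was at 0 in every library, which allows up to 3 reads in each, and this count is uncertain because CCL3L1 and CCL3L3 are near-identical copies that share its reads.

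Per length of annotated exon, CCL2 was the most abundant member in all 4 groups with the control shRNA. Its level was 46.9 ± 1.60 CPM per kb (SD, n = 3) in ER:RAS cells with DMSO and 72.2 ± 53.5 (n = 3) in OIS, and 27.1 ± 10.1 (n = 4) in IMR90 cells with DMSO and 105 ± 58.4 (n = 4) after bleomycin. The gene next to CCL2 differed between the models. In OIS it was CCL20, at 27 ± 2.03 CPM per kb (SD, n = 3), above CCL7 at 6.87 ± 2.93. After bleomycin it was CCL7, at 12.7 ± 18.8 CPM per kb (SD, n = 4), above CCL20 at 1.85 ± 2.76, where both SDs exceeded the means. In DMSO cells CCL11 held that place, at 0.913 ± 0.493 CPM per kb (SD, n = 3) in ER:RAS and 0.785 ± 0.42 (n = 4) in IMR90, within 1 SD of CCL7 in both.

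**Figure D1:**
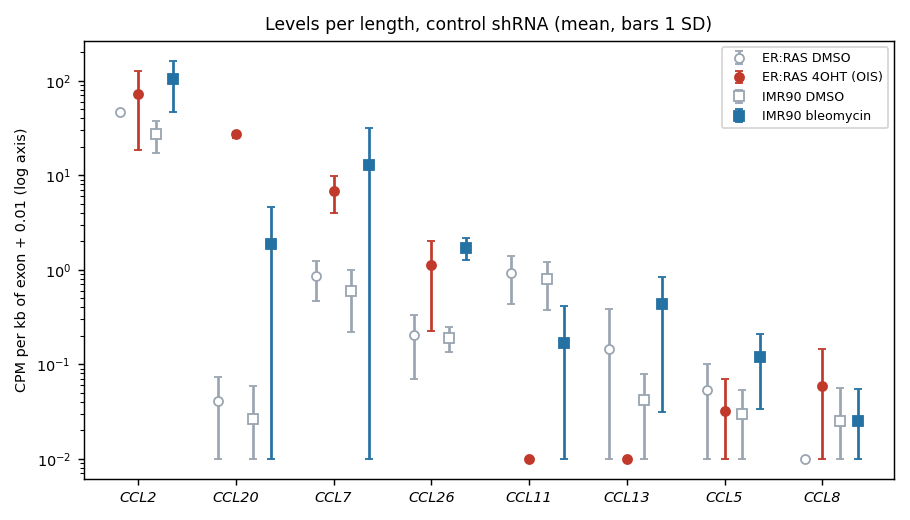
Levels per kb of annotated exon of 8 members in the groups with the control shRNA, on a log axis of CPM per kb plus 0.01. Points are means over 3 (ER:RAS) or 4 (IMR90) libraries and bars 1 SD, cut at 0. CCL2 is the highest member in every group, CCL20 comes next in OIS and CCL7 next after bleomycin.

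CCL2, the best known monocyte attractant, rose after bleomycin and gave no call in OIS. In the control shRNA groups it had 1349, 782, 916 and 922 reads in the IMR90 libraries with DMSO and 2330, 4838, 1751 and 6192 after bleomycin. Every bleomycin library was above every DMSO library. The level went from 52.5 ± 19.5 to 203 ± 113 CPM (SD, n = 4), which is 1.92 on the log2 scale (SE 0.59, adjusted p = 0.0152 by the edgeR quasi-likelihood test with Benjamini-Hochberg adjustment). In the COPB2 shRNA 1 groups the bleomycin libraries had 1178, 4036, 2184 and 12075 reads against 1166, 1048, 940 and 916, and with COPB2 shRNA 2 they had 2138, 5873, 1842 and 11798 against 1274, 740, 1160 and 907. Scaled for depth, the groups did not overlap with either shRNA, and the log2 fold changes were 2.30 and 2.42. Without the 3 bleomycin libraries numbered 4 they were 1.67, 1.42 and 1.89 with the control shRNA, COPB2 shRNA 1 and COPB2 shRNA 2 (adjusted p = 0.0114, 0.0267 and 0.00396 by edgeR). With both COPB2 shRNAs the library numbered 4 was the highest and the library numbered 2 came after it, as with the control shRNA.

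The CCL2 counts in ER:RAS cells were 1733, 1488 and 1867 with DMSO and 2765, 1902 and 692 in OIS with the control shRNA. The OIS libraries lay on both sides of the DMSO libraries. The level was 90.8 ± 3.10 CPM (SD, n = 3) with DMSO and 140 ± 104 in OIS, and the log2 fold change of 0.49 (SE 0.62) gave an adjusted p of 0.595 by edgeR, with a 95% interval from -0.83 to 1.82. OIS counts were 1948, 1434 and 360 with COPB2 shRNA 1 and 1747, 1107 and 397 with COPB2 shRNA 2. The library numbered 3 was the lowest in all 3 OIS groups, and, scaled for depth, so was the DMSO library of that number with COPB2 shRNA 1 and 2 (70.5 and 75.8 CPM), but not with the control shRNA (89.8 CPM). The log2 fold changes in these groups were 0.05 and -0.42, with adjusted p-values of 0.96 and 0.647 by edgeR.

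CCL7, a monocyte attractant next to CCL2 on the chromosome, rose in both models. In ER:RAS cells of the control shRNA it had 9, 10 and 23 reads with DMSO and 94, 89 and 54 in OIS. The groups did not overlap, and the level rose from 0.733 ± 0.335 to 5.93 ± 2.53 CPM (SD, n = 3), a change of 2.86 on the log2 scale (SE 0.44, adjusted p = 1.1e-04 by edgeR). In IMR90 cells it had 16, 4, 11 and 7 reads with DMSO and 72, 70, 20 and 678 after bleomycin. All bleomycin libraries were above the DMSO libraries, and the library numbered 4 held most of the reads. The log2 fold change was 4.41 (SE 1.37, adjusted p = 0.0173 by edgeR), and without the 3 bleomycin libraries numbered 4 it was 2.54 (SE 0.55, adjusted p = 0.00153). CCL7 also rose with both COPB2 shRNAs, by 2.69 and 1.91 on the log2 scale in OIS and by 5.14 and 5.27 after bleomycin, the latter 2.25 and 2.96 without the libraries numbered 4. The calls in OIS with the COPB2 shRNAs were lost in a fit of all 42 libraries (2.79 and 1.98, adjusted p = 0.0767 and 0.22 by edgeR), and those after bleomycin when only the library numbered 4 of the group compared was left out (adjusted p = 0.147, 0.144 and 0.0593 with the control shRNA, COPB2 shRNA 1 and COPB2 shRNA 2). With the control shRNA it was also lost without the DMSO library numbered 2 (adjusted p = 0.0513 by edgeR).

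CCL13, a further ligand of CCR2, had too few reads to be tested. After bleomycin it had 2, 4, 4 and 16 reads with the control shRNA, against 1, 1, 0 and 0 with DMSO. The pooled level was 13.5 times that of the DMSO libraries, with a 95% counting interval from 3.38 to 117. In the COPB2 shRNA 1 group the bleomycin libraries had 2, 7, 0 and 9 reads and with COPB2 shRNA 2 they had 1, 2, 1 and 13, and the pooled ratios were 10.2 (2.43 to 90.2) and 5.97 (1.73 to 31.8). Without the libraries numbered 4 the 3 ratios were 7.00 (1.49 to 65.7), 7.00 (1.45 to 66.6) and 1.95 (0.33 to 13.3), the last with an interval that holds 1. In a fit with no filter on low counts its adjusted p after bleomycin was 0.0206, 0.0473 and 0.104 by edgeR with the control shRNA, COPB2 shRNA 1 and COPB2 shRNA 2, and that of the difference between the models was 0.0306 with the control shRNA. In OIS it had no read in any of the 9 libraries, and the ER:RAS libraries with DMSO and the control shRNA had 0, 0 and 7. These intervals cover counting error only and leave out the spread between libraries, and reads carry no molecular identifiers.

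CCL8, the fourth CCR2 ligand, was close to absent, with reads in 10 of the 42 libraries. Its highest count was 10, in the bleomycin library numbered 4 with COPB2 shRNA 1. In OIS and with the control shRNA its groups were at or under 3 reads in total, and no fold is given.

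**Figure D2:**
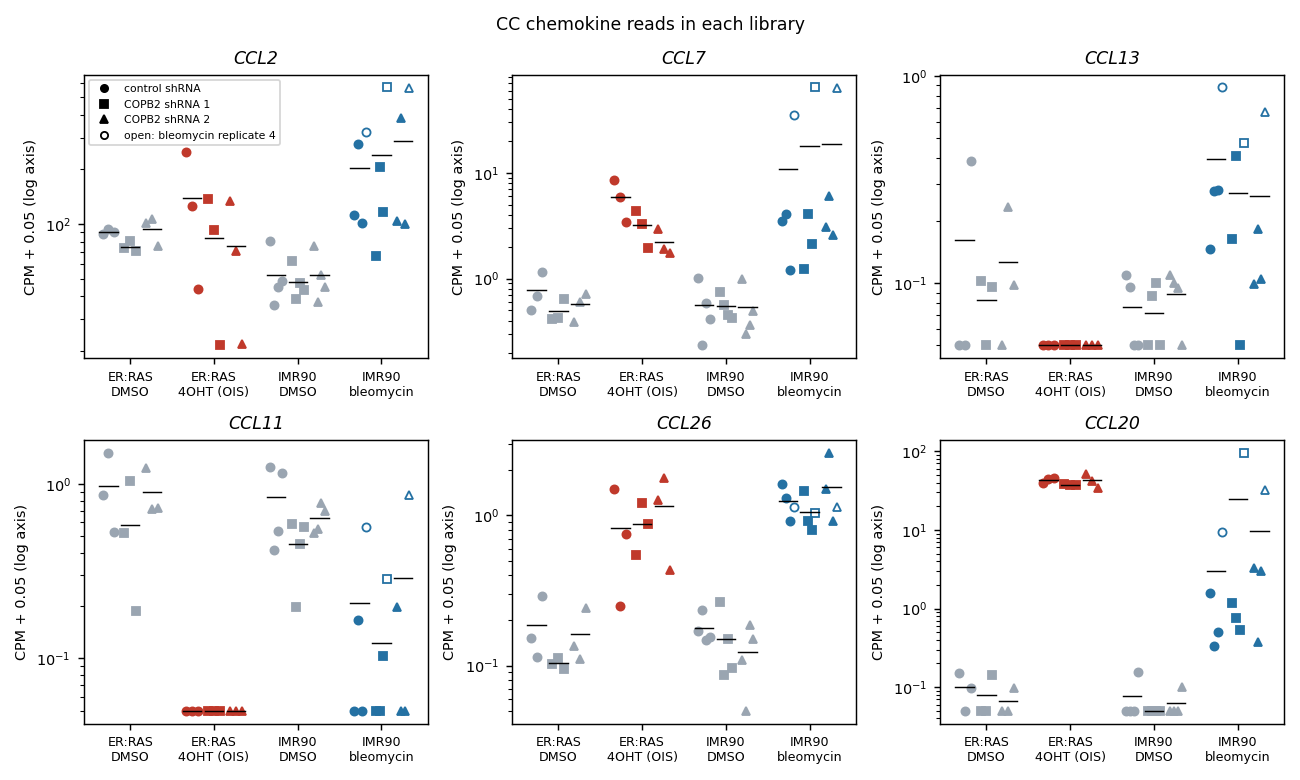
Reads of 6 members in each of the 42 libraries, as CPM plus 0.05 on a log axis. Symbols mark the shRNA, open symbols the 3 bleomycin libraries numbered 4, and black lines the means of each group. CCL20 lies between 34.4 and 51.5 CPM in all 9 OIS libraries and spreads from 0.287 to 95.9 CPM over the 12 bleomycin libraries, CCL11 is at 0 in all OIS libraries, and CCL26 rises in both models without the libraries numbered 4 standing out.

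The eotaxins went in opposite directions. CCL11, which also acts on CCR3, had 16, 23 and 10 reads in ER:RAS cells with DMSO and the control shRNA and 0, 0 and 0 in OIS. There was likewise no read in the 6 OIS libraries with a COPB2 shRNA, against 9, 16 and 3 with DMSO and COPB2 shRNA 1 and 14, 11 and 14 with DMSO and COPB2 shRNA 2. Set against a floor of 3 reads over the group, CCL11 was at least 12.2-fold lower in OIS with the control shRNA, and at least 7.62-fold and 12.4-fold lower with the COPB2 shRNAs. The adjusted p-values by edgeR were 0.00252, 0.00575 and 0.00251. CCL11 passed the filter only through DMSO libraries, so they are a description.

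After bleomycin CCL11 had 0, 2, 0 and 10 reads with the control shRNA, against 20, 8, 10 and 21 with DMSO. The 10 reads were in the library numbered 4, which reached the range of the DMSO libraries, and the other 3 were below it. The log2 fold change was -2.27 (SE 0.89, adjusted p = 0.0577 by edgeR) and -4.20 (SE 0.87, adjusted p = 0.00102) without the libraries numbered 4. The same held with the COPB2 shRNAs, where the bleomycin libraries had 0, 0, 1 and 5 reads and 3, 0, 0 and 17 reads. Their log2 fold changes were -2.29 and -1.21 (adjusted p = 0.105 and 0.269 by edgeR), and -4.06 and -3.30 (adjusted p = 0.00548 and 0.00391) without the libraries numbered 4.

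CCL26, the eotaxin on chromosome 7, rose in both models at low counts. With the control shRNA it had 2, 4, 2 and 2 reads in IMR90 cells with DMSO and 33, 22, 15 and 21 after bleomycin. The groups did not overlap, and the library numbered 4 lay among the others. The level rose from 0.127 ± 0.039 to 1.20 ± 0.302 CPM (SD, n = 4), a change of 3.14 on the log2 scale (SE 0.48, adjusted p = 3.0e-05 by edgeR). CCL26 passed the filter only through senescent libraries, so its p-values in both models are a description. With the COPB2 shRNAs the log2 fold changes were 3.31 (SE 0.50) and 4.14 (SE 0.51).

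CCL26 had 2, 1 and 5 reads in ER:RAS libraries with DMSO and 16, 3 and 11 in OIS for the control shRNA. The lowest OIS library was below the highest DMSO library, and the change of 2.26 on the log2 scale (SE 0.74, adjusted p = 0.0255 by edgeR) lost its call in 3 of the 6 fits that left out 1 library of these groups. Without the OIS library numbered 1 it was 1.59 (adjusted p = 0.139 by edgeR), and without the DMSO libraries numbered 1 or 2 it was 2.13 or 2.01 (adjusted p = 0.0823 or 0.0754). With the COPB2 shRNAs the OIS libraries had 7, 18 and 14 reads and 16, 27 and 7 reads, all above the DMSO libraries at 1, 1 and 1 and at 1, 1 and 4. The log2 fold change with COPB2 shRNA 2 was 3.02 (SE 0.75), and the pooled level with COPB2 shRNA 1 was 15.9 times that with DMSO (95% counting interval 5.06 to 80.6).

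CCL5, a T cell and monocyte attractant, stayed at the edge of detection, with at most 7 reads in a library. After bleomycin with the control shRNA it had 3, 3, 5 and 0 reads, against 1, 0, 1 and 0 with DMSO. The pooled ratio was 5.72 with a 95% counting interval from 1.25 to 53.1, and the libraries overlapped. With the COPB2 shRNAs the pooled ratios were 7.33 (1.66 to 66.9) and 10.5 (1.50 to 457). These intervals leave out the spread between libraries. In the fit with no filter on low counts CCL5 was not called after bleomycin. Its adjusted p was 0.15, 0.0811 and 0.084 by edgeR with the control shRNA, COPB2 shRNA 1 and COPB2 shRNA 2. Without the library numbered 4 the COPB2 shRNA 2 groups were at or under 3 reads, and no fold is given. In OIS its groups held between 1 and 3 reads in total, and the difference from DMSO was not detectable at this depth.

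CCL20, which attracts dendritic cells and T cells through CCR6, had the steepest change of the members in OIS. The control shRNA libraries had 2, 0 and 1 reads with DMSO and 437, 664 and 722 in OIS. The pooled level was 813 times that with DMSO, with a 95% counting interval from 278 to 3947 that is wide because the DMSO libraries held 3 reads in all. The adjusted p was 3.3e-08 by edgeR, a description, since CCL20 passed the filter only through senescent libraries. The OIS libraries of COPB2 shRNA 1 had 553, 575 and 630 reads and those of COPB2 shRNA 2 had 676, 658 and 625, against at most 2 reads in a DMSO library. The OIS level was 43.0 ± 3.24, 37.7 ± 0.992 and 42.6 ± 8.60 CPM (SD, n = 3) with the control shRNA, COPB2 shRNA 1 and COPB2 shRNA 2.

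After bleomycin CCL20 was above its DMSO group in every library, by very different amounts. In the control shRNA group it had 32, 5, 8 and 183 reads, against 0, 0, 0 and 2 with DMSO. In the COPB2 shRNA 1 group it had 20, 14, 9 and 2041 reads, against 0 in all 4 DMSO libraries, and with COPB2 shRNA 2 it had 67, 5, 54 and 683 reads, against 0, 0, 0 and 1. No bleomycin library fell to the level of its DMSO group, and the library numbered 4 was the highest in each. With the control shRNA the pooled level was 118 times that with DMSO (95% counting interval 32.4 to 984), and 31.5 times (8.22 to 268) without the library numbered 4. The test across libraries gave an adjusted p of 0.0563 by edgeR, 0.24 with only its own library numbered 4 left out, and 0.00461 without the 3 libraries numbered 4. It was 0.00491 by DESeq2 and 0.0104 by edgeR in a fit of all 42 libraries. CCL20 was uncalled in 2 of 6 alternative fits and in 7 of the 8 that left out 1 library. With COPB2 shRNA 1 the pooled level was at least 784-fold higher, against a floor of 3 reads over the group, and with COPB2 shRNA 2 it was 852 times that with DMSO (95% counting interval 152 to 33681). Without the library numbered 4, which held 2041 of 2084 and 683 of 809 reads, these became at least 22.3-fold and 184 times (32.5 to 7331). The adjusted p-values were 0.00276 and 0.0089 by edgeR, and 0.00141 and 1.2e-04 without the 3 libraries numbered 4. With only its own library numbered 4 left out, the COPB2 shRNA 1 value lost its call (adjusted p = 0.0546 by edgeR).

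Counted together, 4 of the 5 tested members passed the test in OIS with the control shRNA, 3 higher (CCL7, CCL20 and CCL26) and 1 lower (CCL11), where 35.6% of the 14297 genes tested were called (15.4% higher and 20.2% lower). The same 4 members were called in the same directions with both COPB2 shRNAs, where 36.9% of genes were called in each (15.4% higher and 21.5% lower, and 14.9% higher and 22% lower). After bleomycin 3 of the 5 were called with the control shRNA, all higher (CCL2, CCL7 and CCL26), where 31.2% of the 14783 genes tested were called (15.4% higher and 15.8% lower). There were 4 of the 5 with COPB2 shRNA 1 and with COPB2 shRNA 2, CCL20 being the addition, where 35.2% and 40% of genes were called (17.4% higher and 17.8% lower, and 21.7% higher and 18.3% lower). DESeq2 called CCL20 with the control shRNA as well. Without the 3 bleomycin libraries numbered 4 all 5 tested members were called with each shRNA, 4 higher and CCL11 lower, where 31%, 32.7% and 40.2% of genes were called. Those libraries were left out after the values of these same members had been seen, so the 5 calls are a description. The median log2 fold change of the 5 members was 2.26 in OIS and 3.14 after bleomycin with the control shRNA, against -0.08 and -0.01 over all genes tested. Both medians are the value of CCL26, 1 of the 3 members that had to differ to be tested. They are a description and no measure of the family against all genes.

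**Figure D3:**
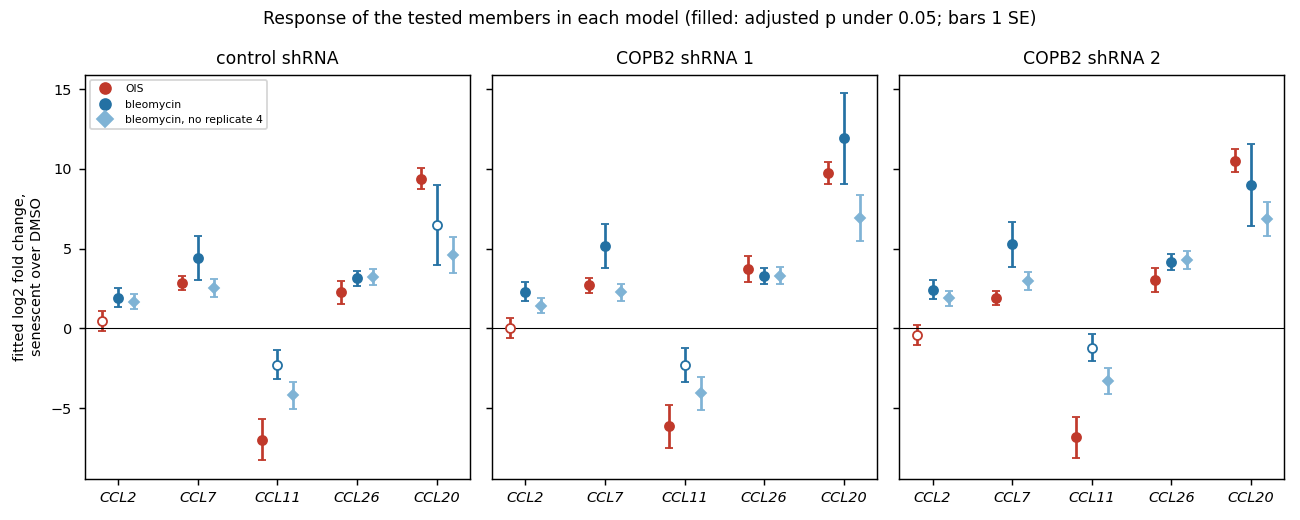
Fitted log2 fold changes, senescent over DMSO, of the 5 tested members with each shRNA, with bars of 1 SE and filled symbols where the adjusted p was under 0.05. Diamonds give bleomycin without the libraries numbered 4. CCL7, CCL26 and CCL20 are above 0 and CCL11 below 0 in both models, and CCL2 is near 0 in OIS (0.49, 0.05 and -0.42) and above 0 after bleomycin (1.92, 2.30 and 2.42). Fitted values for CCL20 and for CCL11 in OIS depend on the small count added to groups with few or no reads.

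The difference between the models was tested as the OIS response minus the bleomycin response. With the control shRNA and with COPB2 shRNA 1, 0 of the 5 members were called by edgeR and 0 by DESeq2, with 0 and 1 at an unadjusted p under 0.05. Of the 15299 genes tested, 20.3% and 18.2% were called, and 30.7% and 29.3% had an unadjusted p under 0.05. With COPB2 shRNA 2, 1 of the 5 was called by edgeR, 2 by DESeq2 (CCL2 and CCL11), and 2 were at an unadjusted p under 0.05, where the shares over all genes were 18.4% (12.5% lower) and 29%. The member called by both was CCL2, whose log2 fold change was lower in OIS than after bleomycin by a difference of -2.78 (SE 0.92, adjusted p = 0.0297 by edgeR). The difference for CCL2 was -1.33 (SE 0.90, adjusted p = 0.345) with the control shRNA and -2.17 (SE 0.91, adjusted p = 0.0982) with COPB2 shRNA 1 in the same test, so its sign was negative with all 3 shRNAs. Without the 3 bleomycin libraries numbered 4 the difference with COPB2 shRNA 2 was -2.17 (SE 0.83, adjusted p = 0.0672 by edgeR), with 0 members called and 19.5%, 19.2% and 18.3% of genes called with the 3 shRNAs. The CCL2 call was also lost in 8 of the 14 fits that left out 1 library of these groups, with adjusted p-values up to 0.102 by edgeR, the highest without the OIS library numbered 3.

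With the control shRNA the responses of the other 4 tested members gave intervals that held 0. The difference for CCL26 was -0.81, and its 95% interval ran from -2.67 to 1.06. For CCL7 it was -1.45, from -4.70 to 1.80, and it turned to 0.48 (SE 0.75) without the libraries numbered 4. For CCL11 and CCL20 the intervals spanned more than 8 log2 units (from -10 to 0.36 and from -6.94 to 12.9). Both had groups near 0, and what widened the intervals was not tested. Without the bleomycin libraries numbered 4 the differences were -2.83 (SE 2.18) for CCL11 and 4.94 (SE 2.13) for CCL20. Neither was called (adjusted p = 0.439 and 0.111 by edgeR).

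Compared directly, the level of CCL20 with the control shRNA was higher in OIS than after bleomycin by 3.86 on the log2 scale (SE 1.23, adjusted p = 0.0106 by edgeR in a fit of all 42 libraries). This comparison of senescent levels was chosen after the data had been seen, and it takes in any difference between the cell lines. Over all genes, 48.2%, 44.3% and 38.3% were called in it with the 3 shRNAs. With COPB2 shRNA 1 and 2 the differences for CCL20 were 0.62 and 2.12 (adjusted p = 0.677 and 0.151 by edgeR). With COPB2 shRNA 2 the direct difference was -3.14 for CCL7 and -1.94 for CCL2 (adjusted p = 0.0264 and 0.0221 by edgeR), both lower in OIS. Without the 3 bleomycin libraries numbered 4 these were -0.81 and -1.37 (adjusted p = 0.228 and 0.0838 by edgeR), no longer called, while CCL20 was higher in OIS by 5.80, 5.64 and 4.30 with the control shRNA, COPB2 shRNA 1 and COPB2 shRNA 2 (adjusted p = 3.4e-08, 5.2e-08 and 1.4e-06 by edgeR). In that comparison 43.4%, 41.8% and 34.7% of genes were called.

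The balance between CCL20 and CCL7 within a library did not overlap between the models. This ratio does not depend on sequencing depth, and it was chosen after the values had been seen, so it is given with no test. In OIS there were 4.65, 7.46 and 13.4 reads of CCL20 for each read of CCL7 with the control shRNA, and over all 9 OIS libraries the ratio ran from 4.65 to 22.7 with a median of 13.4. After bleomycin it was 0.444, 0.0714, 0.4 and 0.27 with the control shRNA, and over all 12 libraries it ran from 0.055 to 1.49 with a median of 0.422. The 3 libraries numbered 4, at 0.27, 1.49 and 0.507, lay on the bleomycin side with the rest.

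**Figure D4:**
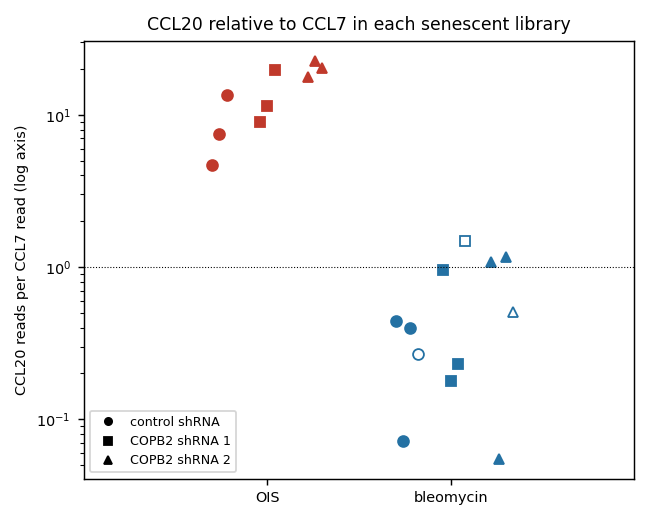
Reads of CCL20 for each read of CCL7 in the 21 senescent libraries, on a log axis, with open symbols for the bleomycin libraries numbered 4 and a dotted line at equal reads. The 9 OIS libraries lie between 4.65 and 22.7 and the 12 bleomycin libraries between 0.055 and 1.49.

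Within the bleomycin groups the library numbered 4 differed from the others in some members and not in others. For CCL20 it was 12.5, 124 and 14.9 times the mean CPM of the libraries numbered 1 to 3, with the control shRNA, COPB2 shRNA 1 and COPB2 shRNA 2. For CCL7 it was 12.3, 26.6 and 16.7 times that mean, and for CCL2 1.97, 4.37 and 2.85 times. These 3 genes were highest in the library numbered 4 with every shRNA. CCL26 was at 0.882, 0.979 and 0.671 times the mean of the others and was never highest there. The summed level of some lists also differed in these libraries. That of 13 inducers and transcription factors of chemokine genes was between 1744 and 2621 CPM in the 3 libraries and between 897 and 1206 in the other 9. The summed level of 3 senescence markers (CDKN1A, LMNB1 and MKI67) was lower there without overlap, at 2048 to 2400 CPM against 2894 to 4580. With the control shRNA 1 of these 3 was called higher and 2 lower after bleomycin by edgeR, so their sum is no measure of senescence. Ranges overlapped for every other list checked. They were 1431 to 4118 against 833 to 1450 CPM for 4 trimming proteases. For 4 endothelial markers they were 18.8 to 33.8 against 6.94 to 19.5 CPM. For 9 fibroblast markers they were 8161 to 14601 against 11483 to 21075 CPM. What part these lists had in the result was not tested.

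**Figure D5:**
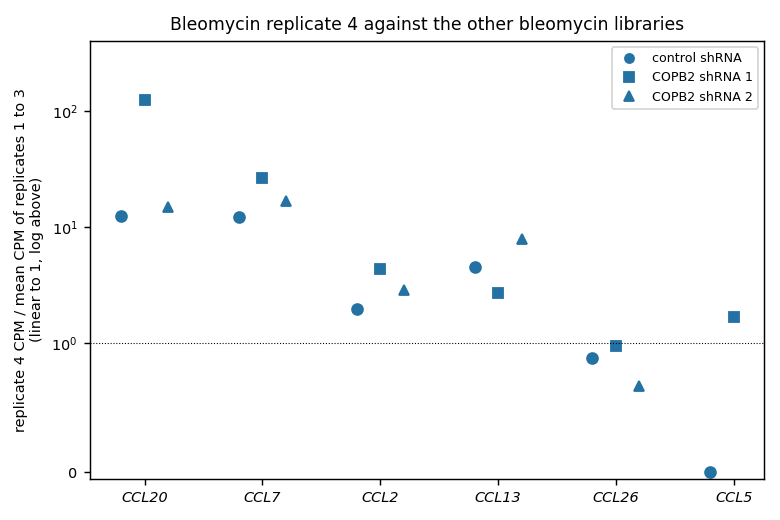
CPM in the bleomycin library numbered 4 divided by the mean CPM of the libraries numbered 1 to 3, for 6 members and each shRNA, on an axis that is linear up to 1 and logarithmic above. CCL20 and CCL7 are between 12.3 and 124 times the others, CCL2 between 1.97 and 4.37 times, and CCL26 between 0.671 and 0.979 times. CCL5 is left out where the other libraries held 3 reads or fewer.

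White blood cells make many of these chemokines, and their markers were low in all libraries. The summed level of 9 leukocyte and macrophage genes was between 0.845 and 1.79 CPM in the 12 IMR90 libraries with DMSO and between 2.69 and 4.42 after bleomycin. It was between 0.77 and 3.23 CPM in the 9 ER:RAS libraries with DMSO and between 1.42 and 4.12 in OIS. After bleomycin all 9 genes had more than 3 reads over the 12 libraries, while in OIS 2 of the 9 had none. With the control shRNA 2 of the 4 tested were called higher in OIS and 1 of the 3 tested after bleomycin by edgeR, and 0 lower. Over all genes tested 15.4% were called higher in each model. The part of these markers in the chemokine results was not tested.

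No member was called for a change with COPB2 knockdown. The 5 tested members gave 40 tests in 8 comparisons, comparing COPB2 shRNA 1 or 2 to the control in each of 4 states, with 0 called by edgeR, 0 by DESeq2 among the 33 for which it gave an adjusted p, and 3 at an unadjusted p under 0.05. In 2 of the 40, CCL11 in OIS, neither group had a read. The comparisons called few genes at all: 0.00699% of genes with either COPB2 shRNA in ER:RAS cells with DMSO, 0.14% and 0.224% in OIS, 0.00676% with either in IMR90 cells with DMSO, and 0.00676% and 0.0744% after bleomycin. Unadjusted p-values under 0.05 were found for 0.811% and 0.93%, 3.23% and 4.48%, 1.12% and 1.12%, and 1.41% and 6.74% of genes in the same order. Of the 3 member tests, CCL7 accounted for 2, both in OIS, where the counts of 94, 89 and 54 with the control shRNA stand beside 62, 50 and 32 with COPB2 shRNA 1 and 38, 29 and 31 with COPB2 shRNA 2. With COPB2 shRNA 2 every library was below every control library, and the log2 differences were -0.91 (SE 0.40) and -1.46 (SE 0.41), with adjusted p-values of 1 and 0.383 by edgeR. The other was CCL20 after bleomycin with COPB2 shRNA 1, at 3.07 (SE 1.44, adjusted p = 1 by edgeR), which was -0.04 (SE 0.73) without the libraries numbered 4. For CCL20 in OIS the differences were -0.20 and -0.04, with 95% intervals from -1.06 to 0.65 and from -0.89 to 0.82. For CCL26 after bleomycin they were -0.26 and 0.29, with intervals from -1.02 to 0.50 and from -0.45 to 1.03. Other intervals were wider. For CCL2 in OIS the differences were -0.75 (-2.08 to 0.58) and -0.90 (-2.24 to 0.43). For CCL7 after bleomycin they were 0.73 (-1.53 to 3.00) and 0.82 (-1.45 to 3.09). These hold 0 and also changes of more than 1 log2 unit.

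Whether the knockdown acted differently in senescent and DMSO cells was tested as an interaction. In the 4 such comparisons 0 of the 5 members were called by edgeR or DESeq2, which gave no adjusted p for 2 of the 20 tests, with 0 at an unadjusted p under 0.05. Over all genes 0% were called in each, and 1.36% and 1.84% in OIS and 0.819% and 1.93% after bleomycin had an unadjusted p under 0.05. For CCL2 in OIS the interaction was -0.44 and -0.91 on the log2 scale, with 95% intervals from -2.31 to 1.43 and from -2.79 to 0.96. Both intervals hold 0 and also changes of more than 1 log2 unit.

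The other genes of the chemokine system were taken from fixed lists. Of 19 further CC ligands, 1 was tested in ER:RAS cells (CCL28) and 2 in IMR90 cells (CCL28 and CCL25), and 0 were called in either model by edgeR, with 0 at an unadjusted p under 0.05. CCL28, a mucosal chemokine, had between 3 and 10 reads in the OIS libraries with the control shRNA and between 3 and 6 with DMSO. CCL25, a thymus and gut chemokine, had between 3 and 15 reads in ER:RAS cells with DMSO and 1 read in all in OIS, and its OIS response was lower than its bleomycin response with the control shRNA (adjusted p = 0.0374 by edgeR).

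Of 14 CC receptors and decoy receptors, 3 of 4 tested were higher in OIS with the control shRNA and 1 of 2 tested was higher after bleomycin, where 15.4% of all genes tested were called higher in each. The 3 had few reads with DMSO and passed the filter on low counts only through senescent libraries, so they had to differ to be tested. CCR7, the receptor of CCL19 and CCL21, had between 1 and 2 reads in a library with DMSO and between 52 and 78 in OIS, a log2 fold change of 5.71 (SE 0.62). After bleomycin it had between 7 and 12 reads against between 0 and 3, a log2 fold change of 2.47 (SE 0.65), and the difference between the models was called with the control shRNA (3.32, SE 1.07, adjusted p = 0.0245 by edgeR). CCR1, a receptor of CCL3 and CCL5, and CCRL2, which binds chemerin, were the other 2 called in OIS, at 4.36 (SE 0.84) and 3.38 (SE 0.63). Reads of receptors were few throughout, with a summed level of at most 21.6 CPM over the 14 genes.

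Of 13 inducers and transcription factors of chemokine genes, 12 were tested. In OIS with the control shRNA 5 were higher and 1 lower, and after bleomycin 3 were higher and 0 lower, where 35.6% and 31.2% of all genes were called. The 3 of 12 after bleomycin was under that share. IL1B, which encodes the cytokine interleukin 1 beta, had between 14 and 20 reads with DMSO and between 102738 and 122381 in OIS, and between 10 and 16 reads with DMSO and between 164 and 1718 after bleomycin. Its log2 fold changes were 13.06 (SE 0.40) and 5.47 (SE 1.30), and the difference of 7.67 (SE 1.57) was called (adjusted p = 4.6e-04 by edgeR). IL1A was also called in both models, at 10.55 and 4.58, and in the difference, at 6.04 (SE 2.09, adjusted p = 0.0369 by edgeR). IL4R, the receptor chain through which interleukin 4 and interleukin 13 induce eotaxins, was called in OIS at 1.77 (SE 0.18) and not after bleomycin at 0.45 (SE 0.30), and the difference of 1.39 (SE 0.39) was called (adjusted p = 0.00861 by edgeR). STAT6, the factor downstream of IL4R, was at -0.01 (SE 0.30) and -0.12 (SE 0.18).

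Of 4 proteases that trim CC chemokines, all 4 were called in both models with the control shRNA, 3 higher and 1 lower, where 35.6% of all genes were called in OIS and 31.2% after bleomycin. DPP4 is a dipeptidyl peptidase that cuts the amino terminus of several chemokines. It was higher by 1.32 (SE 0.35) in OIS and 0.78 (SE 0.24) after bleomycin. MMP1 and MMP3, which cleave monocyte chemoattractants, were higher by 7.65 (SE 0.38) and 12.17 (SE 0.49) in OIS, and by 5.31 (SE 0.63) and 8.17 (SE 1.70) after bleomycin. MMP2 was the 1 that fell, by 1.21 in OIS and by 1.83 after bleomycin on the log2 scale.

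Ordered by mean level over the 12 groups, most neighbouring groups of a member could not be told apart. For CCL2 all 11 neighbouring pairs of groups overlapped in their libraries, and for CCL7 and CCL20 10 of the 11 pairs did. The genes with the group means most like each member over the 12 groups were found by Pearson's r of mean log2 CPM among 15299 genes, as a description of 12 points that share libraries. They were PIDD1 (0.976) and FDXR (0.972) for CCL2, NECTIN4 (0.986) and LRATD1 (0.983) for CCL7, VSTM2L (0.991) and RPS23 (0.979) for CCL11, LRATD1 (0.986) and NCKAP1L (0.981) for CCL26, and FZD8 (0.997) and NRG1 (0.997) for CCL20. Among the members CCL7 and CCL26 were most alike (0.956), while CCL2 and CCL20 were not (0.295).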

How the data were processed

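Counts were taken from 1 deposited table in which the authors give raw read counts per gene symbol, without normalization, for 28266 symbols and 42 libraries. The study's methods describe directional poly(A) libraries read from one end and aligned with Tophat to hg19, while the submitters' processing notes name hg38, DRAGEN, STAR 2.7.8a and DESeq2 1.32.0. Which of these made the table is not given in the sources used here. Symbols were matched to GENCODE v44 lifted to GRCh37 for positions and exonic length.

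Each library was placed in 1 of 12 groups from its label. After filterByExpr and TMM scaling, contrasts were tested with the two-sided quasi-likelihood F-test of edgeR 4.0.16 in R 4.3.3, in fits of the 18 ER:RAS libraries, the 24 IMR90 libraries, or all 42 for differences between models. P-values were adjusted by Benjamini-Hochberg across every gene of a fit, with calls made under 0.05. CPM are counts over the TMM-scaled total times 1e6. Ratios for groups with 1 to 3 reads carry exact 95% counting intervals, and a floor of 3 reads was used at 0. The fits were tested on simulated data with known changes. The labels number the replicates and do not say whether they were separate cultures. In the study's legend for its gene set analysis of COPB2 knockdown in senescent cells, n counts independent experiments. Its n after bleomycin is below the number of labelled replicates, so how that n maps to libraries is not stated. P-values here measure the spread between labelled replicates. All 54 pairs of replicates differed by more than sampling noise. Same-numbered libraries deviated together, at a correlation over 0.1 in every pair, in 5 of 14 contrasts: the OIS response with COPB2 shRNA 1 and 2, knockdown with shRNA 2 in IMR90 DMSO cells, and knockdown with both in bleomycin cells.

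The named genes are the 9 members, genes checking the labels, lists of ligands, receptors, inducers, proteases and cell type markers, and the 2 genes most alike to each tested member. The members and lists were chosen with earlier results of these data known. Alternatives were DESeq2 1.42.0 and its size factors, no filter, a replicate block, fits of only the libraries compared, a fold minimum, and leaving out each library, and, added after seeing the data, leaving out the 3 bleomycin libraries of replicate 4, a fit of all 42 libraries and a direct comparison of senescent levels with and without those 3 libraries.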

Additional observations from a re-analysis of the deposited data

Results flagged for a closer look

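Within groups of 4 libraries, the gap between an extreme library and its nearest neighbour was divided by the range of the group. This ratio passed Dixon's 95% limit in 7 of 35 groups checked over the members. The usual rate of about 1 in 20 assumes independent, normally distributed values. Members share libraries here and some counts are low, so that rate does not apply and the count is a description. All 7 were the library numbered 4 of a bleomycin group. For CCL7 the ratios were 0.916, 0.955 and 0.944 with the control shRNA, COPB2 shRNA 1 and COPB2 shRNA 2, at 35.1, 64.2 and 64.1 CPM. For CCL20 they were 0.865, 0.993 and 0.909, at 9.49, 95.9 and 32.5 CPM. For CCL13 it was 0.854 with COPB2 shRNA 2, at 0.618 CPM. These groups share their replicate number, and what set the libraries apart was not tested.

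The response of CCL2 differed between the models with COPB2 shRNA 2 by the test of the difference itself, at -2.78 on the log2 scale, OIS minus bleomycin.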

How the results depend on the processing

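The alternatives were DESeq2, its size factors, no filter, a replicate block, only the libraries compared, a fold minimum, leaving out each library, and those added after seeing the data. With only the libraries compared, 2 members were called in OIS with the control shRNA and 2 with COPB2 shRNA 1, since CCL11 and CCL26 no longer passed the filter, and 0 for the model difference with COPB2 shRNA 2. With the replicate block, 5 members were called after bleomycin with the control shRNA (CCL20 and CCL11 in addition), and 1 and 2 for the model difference with COPB2 shRNA 1 and 2 (CCL2, and CCL2 with CCL11). Same-numbered bleomycin and DMSO libraries were not paired by the rule used (correlations of their deviations from -0.49 to 0.58), while same-numbered bleomycin libraries of different shRNAs were (0.43 to 0.78). It also added CCL11 after bleomycin with COPB2 shRNA 1 (adjusted p = 0.036 by edgeR). In the 5 paired contrasts the block changed no call and turned the uncalled CCL2 change in OIS with COPB2 shRNA 1 to -0.26. For the model difference with COPB2 shRNA 2, DESeq2 called 2 (CCL2 and CCL11) and no filter gave 0, while no filter gave 1 with the control shRNA (CCL13). Comparing senescent levels directly gave 1 with the control shRNA and 2 with COPB2 shRNA 2, and with COPB2 shRNA 1 gave 0.62 for CCL20 and -0.27 for CCL26. The direct comparison without the bleomycin libraries of replicate 4 called 1 member, CCL20, with each shRNA, and gave 1.02 for CCL7 with the control shRNA and 5.64, 0.41 and -0.23 for CCL20, CCL7 and CCL26 with COPB2 shRNA 1. Without the 3 bleomycin libraries of replicate 4, 5 members were called after bleomycin with the control shRNA and 0 for the model difference with COPB2 shRNA 2, and uncalled values changed sign: the model difference of CCL7 to 0.48 (control shRNA) and 0.58 (COPB2 shRNA 1), that of CCL20 to 3.06 (COPB2 shRNA 1), and the knockdown of CCL20 in bleomycin cells to -0.04. Leaving out 1 library gave 2 to 4 called members after bleomycin with the control shRNA and 0 to 1 for the model difference with COPB2 shRNA 2. The uncalled values that changed sign ran from -0.15 to 0.98, -0.45 to 0.56 and -1.07 to 0.0667 for CCL2 in OIS with the control shRNA, COPB2 shRNA 1 and 2, and, for model differences, from -1.91 to 0.48 and -2.76 to 0.51 for CCL7 with the control shRNA and COPB2 shRNA 1, -2.48 to 3.00 for CCL20 and -0.12 to 0.80 for CCL26 with COPB2 shRNA 1. The knockdown of CCL20 in bleomycin cells with COPB2 shRNA 1 ran from -1.93 to 4.95. The other causes were not tested. Depth limits CCL3, CCL5, CCL8 and CCL13, which the fits with a filter on low counts did not test.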
